A study of Mus musculus with 24 samples.

Results

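Npas4 and 7 genes of activity-regulated secreted factors, namely Pcsk1, Bdnf, Inhba, Nptx2, Scg2, Vgf and Nrn1, were followed in the mouse hippocampus over the first hours after fear conditioning, in which foot shocks were paired with a tone. The 8 genes were taken by name from a count table of 47593 genes, and all 8 were in it. The RNA came from hippocampi of 24 male C57BL/6J mice aged 8 to 12 weeks, in 8 groups of 3 biological replicates. Each genotype, WT or labelled Tob-KO, had a naive group without conditioning and groups killed 15 min after it, at 1 h and at 3 h. The deletion of Tob, which encodes an antiproliferative protein that binds mRNA deadenylases, is constitutive in the labelled strain, so it is present in every cell and before conditioning. None of the groups used here entered the chamber without shock, so the change from naive mice holds the response to the procedure as a whole. The study asked how the rapid hippocampal response to an aversive event differs without TOB.

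Neuronal activity is read into gene expression in waves. Calcium entry first switches on immediate early genes through factors that are already present, such as CREB and SRF, and Npas4 is among them: it encodes a neuronal transcription factor of the bHLH-PAS family that pairs with an ARNT protein and raises late response genes, Bdnf among its known targets. The late genes of neurons include many whose products are released and act on synapses. The 7 activity-regulated genes here encode a prohormone convertase (Pcsk1), granin-type precursors of the dense core vesicle (Scg2, Vgf) and ligands (Bdnf, Inhba). They also include an AMPA receptor organizer (Nptx2) and a membrane-anchored neurite factor that can be shed (Nrn1).

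Some promoters of activity-regulated genes are known for the cAMP response element, the site that CREB binds. The windows below are shown because Npas4 and 2 of the secreted factors hold the letters of this element. Npas4 alone of the 3 was called against naive mice, as given further on, and any part of the letters in this was not tested. RefSeq's sequences on GRCm38.p6 gave promoters for 5 of the 8 genes, at 11 transcription starts, 7 of them of Bdnf, and none was used for Nptx2, Vgf or Nrn1. The 250 bases before each start were searched on both strands for TGACGTC, a nearly complete element, and for its shorter core TGACG, which lies within it. Capitals mark the matched letters, each window runs 5′ to 3′ on the strand of its gene, and a run of 8 capitals is a pair of overlapping matches, 1 on each strand, counted as 1 place.
Npas4, chr19:4990129-4990158, minus strand: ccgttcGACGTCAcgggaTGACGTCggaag
Scg2, chr1:79440076-79440105, minus strand: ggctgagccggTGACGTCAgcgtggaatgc
Pcsk1, chr13:75089768-75089797, plus strand: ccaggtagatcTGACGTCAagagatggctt
Bdnf, start 3 by position, chr2:109692388-109692417, plus strand: atatgacagctcaCGTCAaggcagcgtgga
The Npas4 window lies 158 to 187 bases before the start and holds TGACGTC at 2 separate places. Scg2 and Pcsk1 hold it at 1 place each, 50 to 79 and 60 to 89 bases before their starts. Bdnf holds no TGACGTC at any of its 7 starts and shows only the shorter core, at start 3. Inhba holds neither form and has 1 match to TATAAA. Among 32851 RefSeq promoters, 2.78% held TGACGTC in the same 250 bases, 17.8% TGACG and 12.4% TATAAA. The letters TCGTG, taken here as the core of the NPAS4 site, were in 13.3% of promoters and occurred at 2 of the 7 Bdnf starts and in none of the other 4 genes. By GENCODE's annotation, the windows of Npas4, Scg2 and Bdnf lie within the span of their genes, whose first transcripts start further upstream, and that of Pcsk1 lies before its gene. A match of letters is a description and not a measured site.

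The libraries held 28847989 to 41595972 counts, and the lowest count of any of the 8 genes in any library was 104, for Inhba. Levels are CPM, in which a library's counts are divided by its size, with TMM normalization over the 24 libraries. Tob1, the targeted gene, had higher counts under the Tob-KO label. The 12 WT libraries held it at 33.9 to 44.5 CPM. The 12 libraries labelled Tob-KO held it at 52.1 to 68.3 CPM, with no overlap. The paper cites an earlier report for how this strain was made and checked. The sources used here do not state which part of the gene the deletion removes, so these counts do not check the genotype, and a direction given below for mice labelled Tob-KO holds for the libraries with that label. Markers of neurons and of the hippocampal fields were present in every library (Prox1 of dentate granule cells at 83.2 CPM or more, Wfs1 of CA1 at 130.5 CPM or more). Choroid plexus markers varied widely within most groups, with Ttr between 3.63 and 4210 CPM over the libraries. In bulk tissue, fewer cells of a type and less RNA per cell cannot be told apart.

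The 8 genes span a wide range of abundance. Per kilobase of annotated exon, the mean level in naive WT mice was 84.2 CPM per kb (SD 7.08, n = 3) for Vgf, 77.0 (SD 4.82) for Nrn1 and 73.7 (SD 5.48) for Scg2. Neighbours in this leading set differed by less than the sum of their SDs. Far below them came Nptx2 at 13.8 CPM per kb (SD 1.5), Bdnf at 7.56 (SD 0.632), Pcsk1 at 5.23 (SD 0.621), Npas4 at 2.64 (SD 0.498) and Inhba at 0.735 (SD 0.0307), each separated from its neighbour by more than the sum of the SDs. The secreted factors, Inhba apart, were thus more abundant than the transcription factor already in naive tissue. Lengths are unions of annotated exons on GRCm38 and not those of the transcripts used.

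Npas4 (chromosome 19, 4984355 to 4990316, minus strand, GRCm38) was the single gene of the 8 that was called between naive mice and mice at 15 min. In naive WT mice it stood at 13.3, 10.1 and 9.40 CPM, and at 15 min at 34.2, 23.1 and 22.4 CPM. In naive mice labelled Tob-KO it stood at 6.28, 4.90 and 7.07 CPM, and at 15 min at 22.6, 17.2 and 30.9 CPM. Every library at 15 min exceeded every naive library, in both genotypes.

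The rise at 15 min was 2.43-fold in WT mice (log2 fold change 1.28, SE 0.21, FDR = 0.019, edgeR quasi-likelihood test over 19500 genes). Npas4 was thus 1 of 9 genes called in WT mice, 0.0462% of those tested, and none of the 7 secreted factors was called. The rise was 3.88-fold in mice labelled Tob-KO (log2 fold change 1.96, SE 0.22, FDR = 0.000231), where 2.51% of genes were called and again Npas4 alone of the 8. The WT call was lost without replicate 1 at 15 min (FDR = 0.0912), without naive replicate 2 (FDR = 0.147) or naive replicate 3 (FDR = 0.187), and with only the 6 libraries compared (FDR = 0.16). In mice labelled Tob-KO, leaving out any 1 of the 6 libraries kept the call, and only the fit of those 6 libraries by themselves lost it (FDR = 0.0601).

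Most of the rise was gone at 1 h. At that time the WT libraries held Npas4 at 10.9, 10.7 and 8.65 CPM, and those labelled Tob-KO at 11.7, 8.07 and 9.97 CPM. By 3 h the WT values were 8.42, 10.03 and 12.5 CPM, beside 7.36, 6.89 and 5.85 CPM under the Tob-KO label. All 6 libraries at 1 h lay below all 6 at 15 min, and the libraries at 1 h and 3 h overlapped.

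Over both genotypes, Npas4 rose 3.07-fold from naive to 15 min (log2 fold change 1.62, SE 0.15, FDR = 6.49e-06) and fell by 1.32 on the log2 scale from 15 min to 1 h (SE 0.15, FDR = 0.000161). In the first of these steps 4.35% of genes were called, in the second 0.41%, and Npas4 was the only member called in each. The step from 1 h to 3 h was −0.27 (SE 0.15, FDR = 0.416). Against naive mice, Npas4 at 1 h was at −0.11 (SE 0.21, FDR = 0.907) in WT and at 0.70 (SE 0.22, FDR = 0.111) in mice labelled Tob-KO, and neither was called. The 3 libraries at 1 h under the Tob-KO label all lay above its naive libraries, while those of WT overlapped theirs.

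**Figure D1:**
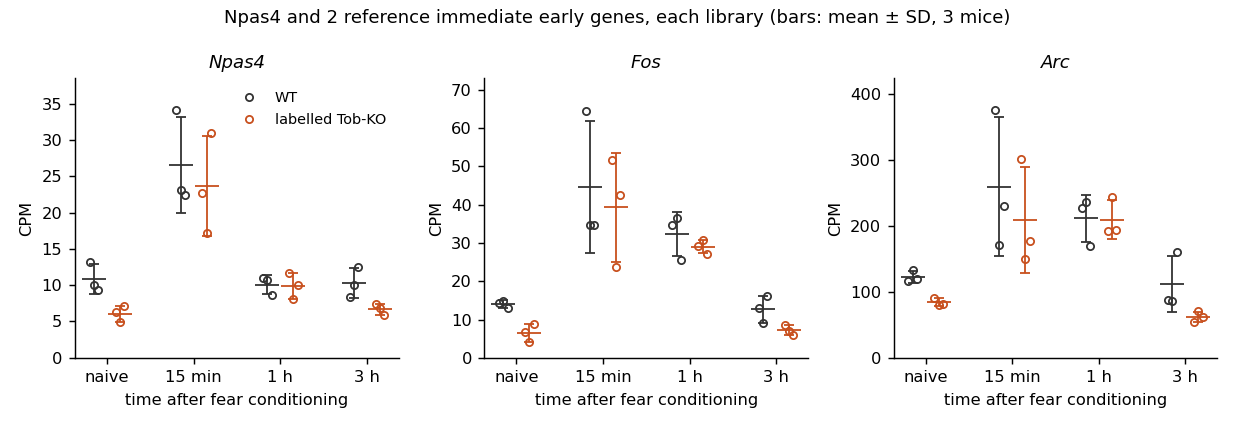
Level of Npas4, Fos and Arc in CPM (vertical axes) in each library, shown as circles, by time after fear conditioning, with the mean and SD of 3 mice as bars. Npas4 stood at 17.2 to 34.2 CPM at 15 min and at 8.07 to 11.7 CPM at 1 h, while Fos was still at 25.7 to 36.6 CPM at 1 h.

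This fall set Npas4 apart in time from the reference immediate early genes Fos, Fosb, Junb, Egr1, Egr2 (transcription factors) and Arc (a synaptic protein that removes AMPA receptors). All 6 rose over both genotypes at 15 min, with log2 fold changes from 0.72 for Fosb to 2.70 for Egr2 and a median of 1.09, against 0.002 over all genes tested. With only the libraries compared, the calls of Egr1 (FDR = 0.0927) and Fosb (FDR = 0.1) were lost. From 15 min to 1 h none of the 6 was called. Fos changed by −0.45 (SE 0.19, FDR = 0.293), Arc by −0.15 (SE 0.18, FDR = 0.779) and Fosb by 0.37 (SE 0.15, FDR = 0.266) in the step in which Npas4 fell by 1.32. All 6 then fell from 1 h to 3 h, with a median of −1.14, against 0.002 over all genes. The differences between these genes and Npas4 were not themselves tested.

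Within each genotype the 15 min rise was called for Fos, Junb and Egr2 in WT mice and for these with Egr1 and Arc in mice labelled Tob-KO. With only the libraries compared, all 8 of these calls were lost (FDR 0.0601 to 0.303). In WT mice the calls of Fos and Junb were lost without replicate 1 at 15 min or any 1 naive library, and that of Egr2 without replicate 1 at 15 min or naive replicate 2 or 3 (FDR up to 0.187). In mice labelled Tob-KO those of Fos, Junb and Egr2 were kept without each of the 6 libraries, that of Egr1 was lost without any 1 library except replicate 2 at 15 min (FDR up to 0.19), and that of Arc without replicate 1 at 15 min or naive replicate 2 or 3 (FDR up to 0.0671). Replicate 1 of the WT mice at 15 min was the highest of all 24 libraries for Npas4 and for each of the 6 reference genes, with Fos at 64.6 CPM against 34.8 and 34.6 CPM in the other WT libraries of that time. Without it the WT change of Npas4 was 1.06 on the log2 scale (FDR = 0.0912).

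At 1 h, when Npas4 was called in neither genotype, Fosb and Egr2 were called in WT mice, but neither call outlasted the removal of any single library (FDR up to 0.171 for Fosb and 0.204 for Egr2). In mice labelled Tob-KO all 6 reference genes were called at 1 h, with log2 fold changes from 1.01 for Junb to 2.73 for Egr2, and Fos at 2.15 (SE 0.30, FDR = 0.00853). The Fos call was lost without replicate 2 at 1 h (FDR = 0.0545). Those of Egr2 and Junb were lost without that library or naive replicate 1 (FDR up to 0.0863). That of Arc was lost without replicate 2 or 3 at 1 h or naive replicate 1 or 2 (FDR up to 0.141), and those of Egr1 and Fosb without any 1 library except naive replicate 3 (FDR up to 0.16 and 0.0977).

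Markers of other cells moved with the 15 min libraries. The score of 4 endothelial markers (Cldn5, Flt1, Pecam1, Slco1a4), a mean log2 deviation from each gene's mean over the 24 libraries, was 0.20 to 0.76 in the 6 libraries at 15 min and −0.29 to 0.16 in the 6 naive libraries, and all 4 markers were detected in every library. The score of 5 blood markers was 0.67 to 1.92 in WT mice at 15 min and −0.08 to 0.19 in naive WT mice, and in mice labelled Tob-KO it was −0.40 to −0.10 at 15 min and −0.35 to −0.01 in naive mice. Of these markers, S100a8 was at 0 in 2 libraries and S100a9 in 1. The score of 8 choroid plexus markers was −3.96 to −3.04 in WT mice at 15 min, below every naive WT library (−2.97 to 2.31), while in mice labelled Tob-KO it was −2.47 to 2.76 at 15 min and −2.49 to 3.28 in naive mice. Over the 24 libraries, log2 CPM of Npas4 ran with the endothelial (Pearson r = 0.725, Spearman rho = 0.629), blood (r = 0.575, rho = 0.366), astrocyte (r = 0.519, rho = 0.536) and microglia (r = 0.417, rho = 0.284) scores. Its r was −0.379 with the dentate granule cell score, −0.372 with the CA3 score and −0.304 with the choroid plexus score. The part of RNA from these cells in the rise of Npas4 was not tested.

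Over the 24 libraries, the 5 genes with the log2 CPM most like that of Npas4 among 14449 genes at a mean of 1 CPM or more were Btg2 (Pearson r = 0.933), Ier2 (0.923), Dusp1 (0.869), Cyr61 (0.854) and 1700016P03Rik (0.844). Btg2 encodes an antiproliferative protein of the same family as TOB, Ier2 an immediate early nuclear protein, and Dusp1 a MAP kinase phosphatase. The libraries share group and dissection, so these values are descriptions. In WT mice, mean Btg2 went from 16.1 CPM in naive mice to 37.6 at 15 min, 19.0 at 1 h and 15.1 at 3 h. Dusp1 went from 21.5 to 44.0, 23.5 and 17.8 CPM. In WT mice both group means thus came back near the naive mean by 1 h, as that of Npas4 did. Under the Tob-KO label, mean Btg2 went from 14.0 to 32.1, 18.3 and 13.9 CPM. There Dusp1 went from 14.3 to 33.6, 27.4 and 15.2 CPM, so its mean at 1 h was still well above the naive mean.

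None of the 7 secreted factors was called against naive mice at any time in either genotype. At 1 h, 0.185% of genes were called in WT mice and 1.13% in mice labelled Tob-KO. At 3 h, 0.0% were called in each, although 779 genes in WT mice and 2071 in mice labelled Tob-KO had an unadjusted p below 0.05, and DESeq2 called 0 and 27. The log2 changes of the 7 genes ranged from −0.40 (Inhba, 15 min, labelled Tob-KO) to 0.38 (Pcsk1, 1 h, labelled Tob-KO). The plot of changes from naive shows Npas4 at 15 min outside this range in both genotypes.

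**Figure D2:**
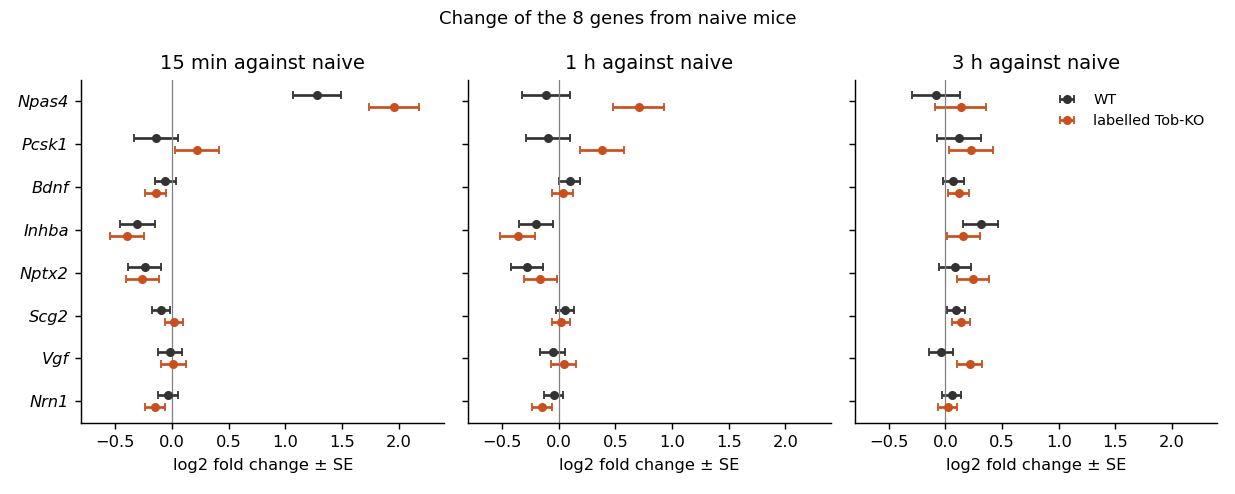
Log2 fold change against naive mice (horizontal axes, ± SE) of the 8 genes at each time in WT mice and mice labelled Tob-KO. Npas4 was at 1.28 and 1.96 at 15 min, and the other 7 genes stayed between −0.40 and 0.38 at all times.

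Pcsk1 encodes the prohormone convertase that cuts peptide precursors in dense core vesicles. From naive mice to 3 h, its WT levels were 29.3 ± 3.48, 26.5 ± 7.63, 27.5 ± 4.82 and 31.9 ± 2.98 CPM (SD, n = 3). The levels under the Tob-KO label were 22.3 ± 7.62, 26.0 ± 3.5, 29.1 ± 2.04 and 26.1 ± 1.90 CPM. Its 1 h change of 1.30-fold in the latter (95% interval 0.984 to 1.73, FDR = 0.355) is the largest upward change of the 7 factors from naive mice, and it rests on naive libraries at 19.4, 16.6 and 30.9 CPM whose coefficient of variation, 34.2%, was the highest of this gene's 8 groups. At 15 min Pcsk1 changed by −0.14 in WT mice (SE 0.19, FDR = 0.881) and by 0.22 in mice labelled Tob-KO (SE 0.20, FDR = 0.601).

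Bdnf, the neurotrophin that acts through TrkB, stood within a narrow band. Its level was 47.0 ± 3.93, 45.1 ± 1.68, 50.2 ± 1.65 and 49.2 ± 8.77 CPM (SD, n = 3) along the 4 times in WT mice. Under the Tob-KO label it was 52.2 ± 4.45, 47.3 ± 3.96, 53.4 ± 3.14 and 56.6 ± 1.81 CPM. The 95% intervals of the change from naive mice reached at most 1.22-fold in WT mice, at 1 h, and 1.24-fold in mice labelled Tob-KO, at 3 h, so larger rises of the summed Bdnf count lay outside them. The count sums all Bdnf transcripts, which start at several promoters, and the transcripts of single promoters were not analysed here.

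Scg2, the precursor of secretoneurin, and Vgf, the precursor of several neuropeptides, were abundant and were not called at any time. Scg2 ranged from 164.1 to 222.8 CPM over the 24 libraries, and Vgf from 192.0 to 294.8 CPM. Their largest changes from naive mice were 1.10-fold for Scg2 (95% interval 0.982 to 1.23) and 1.16-fold for Vgf (0.991 to 1.36), both at 3 h in mice labelled Tob-KO. At 15 min over both genotypes Scg2 changed by −0.04 (SE 0.06, FDR = 0.721) and Vgf by −0.002 (SE 0.08, FDR = 0.992). Whether the TGACGTC letters before Scg2 are used in this tissue was not tested.

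Nrn1, the neuritin gene (chromosome 13, 36725361 to 36735131, minus strand), ranged from 152.8 to 212.0 CPM. Its group means lay between 165.1 CPM, at 15 min and 1 h in mice labelled Tob-KO, and 185.6 CPM, at 3 h in the same genotype. The largest change from naive mice was −0.15 (SE 0.09, FDR = 0.389 at 15 min and 0.419 at 1 h, labelled Tob-KO). Fars2 overlaps Nrn1 by 920 bp on the other strand, and the strand setting of the counting is not given in the sources used here. Fars2 held 355 to 566 counts per library against 4597 to 6913 for Nrn1.

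**Figure D3:**
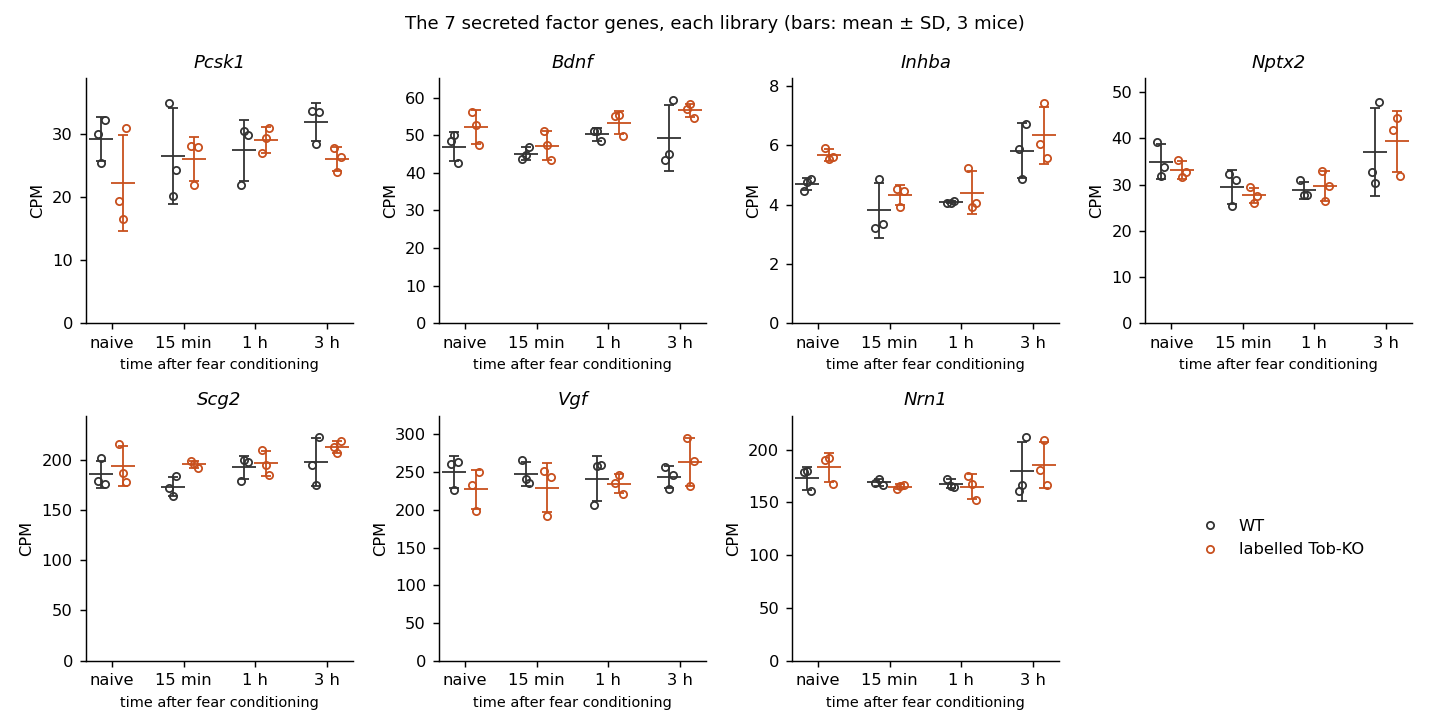
Level in CPM (vertical axes, from 0) of the 7 secreted factor genes in each library (circles) by time after fear conditioning, with the mean and SD of 3 mice. By group mean, Inhba and Nptx2 stand lower at 15 min and 1 h than at 3 h, though some single libraries overlap. Bdnf, Scg2, Vgf and Nrn1 vary by 1.36 to 1.54 times between their lowest and highest library.

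Inhba and Nptx2 were the 2 factors that were called in any comparison, and the calls came late, from 1 h to 3 h. Inhba encodes the βA subunit of activin A, a ligand of the TGF-β family. WT libraries held it at 4.07, 4.06 and 4.12 CPM at 1 h and at 5.88, 4.86 and 6.70 CPM at 3 h. Libraries labelled Tob-KO held it at 5.24, 3.93 and 4.06 CPM at 1 h and at 6.03, 7.41 and 5.56 CPM at 3 h. Within each genotype every 3 h library exceeded every 1 h library. The rise was 1.43-fold over both genotypes (log2 fold change 0.52, SE 0.11, FDR = 0.0105), and it stayed called without each of the 12 libraries in turn (FDR 0.00776 to 0.0389).

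Nptx2 encodes neuronal pentraxin 2 (Narp), which is released and clusters AMPA receptors. WT libraries held 31.0, 27.8 and 27.8 CPM at 1 h and 32.8, 30.4 and 47.9 CPM at 3 h. Those labelled Tob-KO held 32.9, 26.4 and 29.7 CPM at 1 h and 41.9, 44.4 and 31.8 CPM at 3 h. The groups overlapped in both genotypes, with 1 high library at 3 h in WT mice and 2 in mice labelled Tob-KO. The rise was 1.30-fold (log2 fold change 0.38, SE 0.10, FDR = 0.0388). This call was lost without replicate 3 at 3 h in WT mice (log2 fold change 0.27, FDR = 0.11), without any 1 WT library at 1 h (FDR 0.0508 to 0.0839), without replicate 2 or 3 at 1 h in mice labelled Tob-KO (FDR = 0.113 and 0.07), without replicate 1 or 2 at 3 h in these mice (FDR = 0.0883 and 0.0947), and with only the libraries compared (FDR = 0.0663).

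In this step 3.31% of all genes were called, and 2 of the 8 members. The rises began from levels below those of naive mice. Mean Inhba over both genotypes was 5.18 ± 0.562 CPM (SD, n = 6) in naive mice, 4.06 ± 0.677 at 15 min, 4.25 ± 0.490 at 1 h and 6.08 ± 0.89 at 3 h. Nptx2 was at 34.1 ± 2.88, 28.6 ± 2.75, 29.3 ± 2.42 and 38.2 ± 7.45 CPM. The differences from naive to 15 min did not pass the test, with Inhba at −0.35 (SE 0.11, FDR = 0.0694, and FDR = 0.0222 without WT replicate 2 at 15 min) and Nptx2 at −0.25 (SE 0.10, FDR = 0.16). At 3 h against naive, Inhba was at 0.31 (SE 0.15, FDR = 1.0) in WT mice and 0.16 (SE 0.15, FDR = 0.701) in mice labelled Tob-KO, and Nptx2 at 0.08 (SE 0.14, FDR = 1.0) and 0.24 (SE 0.14, FDR = 0.536). Neither gene was therefore called above its naive level at 3 h.

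The other 5 factors took the same step without a call. Nrn1 changed by 0.14 (SE 0.06, FDR = 0.272), Vgf by 0.09 (SE 0.08, FDR = 0.622), Scg2 by 0.08 (SE 0.06, FDR = 0.549), Bdnf by 0.03 (SE 0.07, FDR = 0.888) and Pcsk1 by 0.03 (SE 0.14, FDR = 0.952). Over the 24 libraries, log2 CPM of Nptx2 and Nrn1 (Pearson r = 0.727), of Inhba and Nptx2 (0.660) and of Bdnf and Scg2 (0.760) went together, and Npas4 ran opposite to Inhba (−0.588) and Bdnf (−0.514). These are descriptions over libraries that share groups. The endothelial score, 0.20 to 0.76 at 15 min, was −0.27 to 0.13 at 1 h and −0.41 to −0.04 at 3 h, and the blood score was −0.31 to 0.42 at 1 h and −0.78 to −0.05 at 3 h. Inhba ran against the blood (r = −0.669) and endothelial (−0.425) scores, for which Nptx2 was at −0.186 and −0.361. The part of these cells in the changes of Inhba and Nptx2 was not tested.

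No member was called between genotypes at any time. Beside 0 of 8 members, 0.0218% of genes were called in naive mice, 0.555% at 15 min, 0.033% at 1 h and 0.0274% at 3 h (edgeR exact test, at least 2-fold and FDR of at most 0.05). Over all times 0.462% of genes were called (quasi-likelihood test with time as a factor, no fold limit) and again 0 of 8 members. The largest difference was that of Npas4 in naive mice, where 6.28, 4.90 and 7.07 CPM in mice labelled Tob-KO all lay below 13.3, 10.1 and 9.40 CPM in WT. Its log2 fold change was −0.84 (SE 0.18, unadjusted p = 9.34e-05, FDR = 0.132, edgeR exact test).

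At 15 min this gap was not seen, with Npas4 at −0.17 (SE 0.22, FDR = 1.0), nor at 1 h, at −0.02 (SE 0.14, FDR = 1.0). At 3 h it was −0.63 (SE 0.16, unadjusted p = 0.00115, FDR = 0.297, edgeR exact test), and the 3 libraries labelled Tob-KO, at 5.85 to 7.36 CPM, again lay below the 3 WT libraries, at 8.42 to 12.5 CPM. Over all times Npas4 was at −0.40 (SE 0.12, FDR = 0.14). The 6 reference immediate early genes were also lower in naive mice labelled Tob-KO, with a median of −0.57 against 0.006 over all genes, and none was called because of the fold limit (Arc, −0.54, FDR = 2.1e-05) or the FDR (Fos, −1.11, FDR = 0.0696). All 6 were lower at the other times too, with a median of −0.30 at 15 min, −0.16 at 1 h and −0.70 at 3 h. Over all times their median was −0.41, and none was called in these comparisons.

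**Figure D4:**
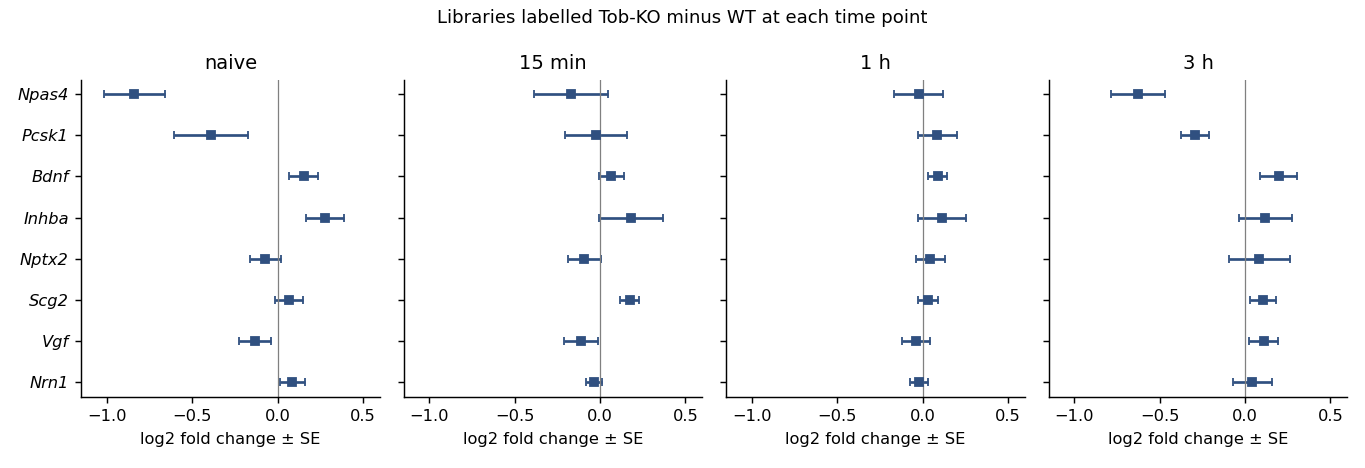
Log2 fold change (horizontal axes, ± SE) of the 8 genes in libraries labelled Tob-KO against WT libraries at each time point. Npas4 was at −0.84 in naive mice, −0.17 at 15 min, −0.02 at 1 h and −0.63 at 3 h, and no gene was called at any time.

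Whether the response itself differed between genotypes was tested by the interaction of genotype and time, for which 0.0% of genes were called at any of the 3 times, although 939, 809 and 924 genes had an unadjusted p below 0.05 and DESeq2 called 0 at each time. Npas4 changed from naive by 0.67 more on the log2 scale at 15 min in mice labelled Tob-KO (SE 0.30, unadjusted p = 0.0351, FDR = 0.981) and by 0.82 more at 1 h (SE 0.31, unadjusted p = 0.0146, FDR = 0.999). Both comparisons use the same naive libraries, in which the genotypes stood apart. At 3 h the value was 0.22 (SE 0.31, FDR = 0.932). For the 7 factors the interactions ranged from −0.16 (Inhba, 1 h) to 0.48 (Pcsk1, 1 h), none with an unadjusted p below 0.05.

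Among the factors, the lowest unadjusted p values between genotypes were those of Pcsk1 at 3 h (−0.29, SE 0.08, p = 0.00524, FDR = 0.654, edgeR exact test) and of Bdnf over all times (0.13, SE 0.05, p = 0.00984, FDR = 0.214). Bdnf was at 47.9 ± 4.70 CPM (SD, n = 12) in WT mice and 52.4 ± 4.60 CPM in mice labelled Tob-KO, and the libraries overlapped. The 95% intervals of the difference over all times were 1.02 to 1.16-fold for Bdnf, 1.02 to 1.25 for Inhba, 1.01 to 1.13 for Scg2, 0.779 to 1.03 for Pcsk1, 0.90 to 1.10 for Nptx2, 0.897 to 1.05 for Vgf and 0.953 to 1.07 for Nrn1. Those of Bdnf, Inhba and Scg2 lay above 1, but the intervals are not adjusted for the number of genes tested, and none of the 3 passed the adjusted test.

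The levels of Pcsk1 and Vgf moved with markers of hippocampal cells over the 24 libraries. Pcsk1 ran against the score of 4 CA3 markers (Bok, Grik4, Iyd, Cpne4; Pearson r = −0.836, Spearman rho = −0.857). The naive libraries labelled Tob-KO replicate 1 and replicate 2, the lowest for Pcsk1 at 19.4 and 16.6 CPM, had the highest CA3 scores, 0.30 and 0.39. Pcsk1 also ran against the dentate granule cell (r = −0.600), microglia (−0.574) and oligodendrocyte (−0.551) scores and with the neuron score (0.559). Vgf ran against the dentate granule cell score (r = −0.662, rho = −0.639) and the CA3 score (r = −0.645, rho = −0.643), and with the striatum score (r = 0.426) and that of 6 neuron markers (r = 0.718, rho = 0.549). All CA3 and neuron markers were above 0 in every library. Other factors also ran with field scores. Bdnf ran with the dentate granule cell (r = 0.564) and CA3 (0.488) scores, Nrn1 with the CA3 score (0.502) and Scg2 with the dentate score (0.467). Values of like size were seen with scores of other cells. Scg2 ran against the blood (−0.546) and endothelial (−0.488) scores, Bdnf against the endothelial score (−0.400), and Nrn1 with the microglia score (0.441). These correlations describe libraries that share groups, and the part of tissue composition in the values of these genes was not tested.

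**Figure D5:**
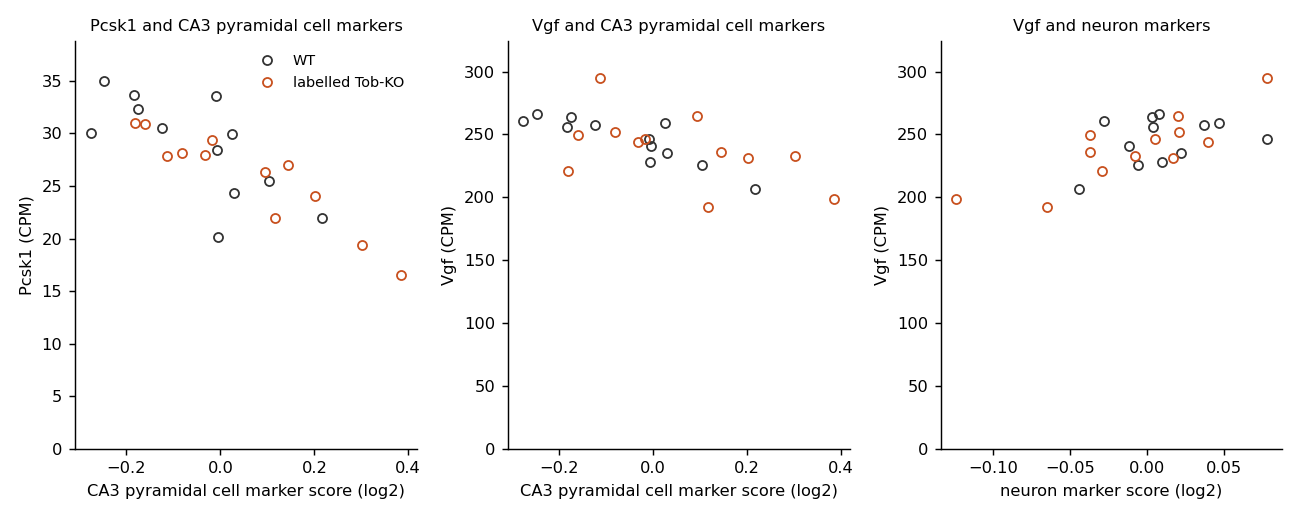
Level of Pcsk1 or Vgf in CPM (vertical axes) against the marker score of CA3 pyramidal cells or neurons (horizontal axes, mean log2 deviation) in the 24 libraries, 1 circle each. Pcsk1 and Vgf fall with the CA3 score (r = −0.836 and −0.645), and Vgf rises with the neuron score (r = 0.718).

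The genes most like Pcsk1 over the libraries were Myo5a (r = 0.917), Raph1 (0.917) and Etl4 (0.894), and those most like Vgf were Slc6a17 (0.897), Pacsin1 (0.878) and Ndrg4 (0.866). Nptx2 was most like Slc30a3 (0.844), the zinc transporter of synaptic vesicles, followed by Tfdp1 (0.791) and Syt13 (0.786). Inhba was most like Rgl1 (0.809), Dbn1 (0.807) and Tfdp1 (0.787). Bdnf was most like Ptprj (0.801), Lsm8 (0.774) and Jdp2 (0.767), Scg2 like Tmem68 (0.807), Bdnf (0.760) and Brinp1 (0.758), and Nrn1 like Dgkz (0.793), Olfm1 (0.771) and Slc35c2 (0.770). Tfdp1 was thus near both Inhba and Nptx2, which also ran with each other (r = 0.66) and both rose from 1 h to 3 h. The libraries share groups, so these likenesses are descriptions.

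Partners of the 8 genes were read from 6 lists of 58 genes, of which 7 genes were called in any of the 17 comparisons. Of the 12 genes of activin signalling, Inhbb, the βB subunit, fell by 0.44 on the log2 scale from 1 h to 3 h (SE 0.09, FDR = 0.00881), the step in which the βA subunit Inhba rose. Inhbb was at 8.42 ± 0.568 CPM (SD, n = 6) in naive mice, 10.4 ± 1.37 at 15 min, 10.1 ± 0.544 at 1 h and 7.40 ± 1.10 at 3 h. Its fall thus began from a mean above that of naive mice. The call was kept without each of the 12 libraries. Acvr1c, the type I receptor ALK7, was higher over all times in mice labelled Tob-KO (log2 fold change 0.21, SE 0.04, FDR = 0.00525, kept without each of the 24 libraries). The activin receptors, follistatins and Smad genes were otherwise not called.

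Of the 7 bHLH-PAS partners and relatives of Npas4, Npas3 rose at 15 min over both genotypes (0.28, SE 0.07, FDR = 0.0231), from 13.5 ± 1.49 to 16.4 ± 1.22 CPM (SD, n = 6). The call was lost without naive WT replicate 2 or naive replicate 3 labelled Tob-KO (FDR up to 0.0608), and with only the libraries compared (FDR = 0.117). Arnt and Arnt2, with which NPAS4 pairs, were not called in any comparison.

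Of the 13 granin and prohormone processing genes, Scg3 rose at 15 min (0.13, SE 0.04, FDR = 0.0415) and Ptprn, a vesicle membrane protein, fell by 0.13 on the log2 scale (SE 0.04, FDR = 0.0493). The Scg3 call was lost without any 1 of 7 libraries, namely each naive WT library, WT replicate 2 at 15 min, naive replicates 2 and 3 labelled Tob-KO, and replicate 3 at 15 min so labelled (FDR up to 0.104). The Ptprn call was lost without any 1 of 9 of the 12 libraries, all but naive WT replicate 1, WT replicate 1 at 15 min and naive replicate 2 labelled Tob-KO (FDR up to 0.146). Both calls were also lost with the replicate block, with no filter on low counts and with only the libraries compared (FDR up to 0.142 for Scg3 and 0.152 for Ptprn). In mice labelled Tob-KO alone, Scg3 was called at 15 min (0.21, SE 0.05, FDR = 0.0293), and in 3 of 6 fits that left out 1 library. This call was lost without naive replicates 2 or 3 or replicate 3 at 15 min. It was also lost with only the libraries compared, both without and with the replicate block (FDR up to 0.272).

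Of the 8 neurotrophin ligands and receptors, Ntrk3, the TrkC receptor, fell by 0.19 on the log2 scale at 15 min (SE 0.05, FDR = 0.0341), and Ntrk2, the receptor of BDNF, was not called. The Ntrk3 call was lost without any 1 of 8 libraries, namely naive replicates 2 and 3 and 15 min replicates 1 and 2 of WT, and naive replicates 1 and 2 and 15 min replicates 1 and 3 labelled Tob-KO (FDR up to 0.141), and with only the libraries compared (FDR = 0.143). Of 12 neuropeptide precursors, Penk, the enkephalin precursor, rose from 1 h to 3 h (0.44, SE 0.12, FDR = 0.0372). This was lost without any 1 of 6 libraries, namely WT replicates 1 and 2 at 1 h and 1 at 3 h, and replicates 2 and 3 at 1 h and 3 at 3 h labelled Tob-KO (FDR up to 0.112), and also with the replicate block and with only the libraries compared (FDR up to 0.0722). None of the 6 genes of neuronal pentraxins and AMPA receptor subunits was called in any comparison.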

How the data were processed

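Hippocampal poly(A) RNA of 24 mice was sequenced from directional libraries made with 8 PCR cycles, as 150-bp paired-end reads. The authors mapped reads to GRCm38 with STAR 2.6.1d and counted them on genes with HTSeq 0.9.0, and the deposited counts are whole reads per gene without normalization. The annotation release, strand setting and handling of marked duplicates are not given in the sources used here. Reads carry no molecular identifiers, so they are not independent molecules. Columns named 0 h are the mice at 15 min, as the submitters' design states.

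Groups came from the sample labels. Times and interactions were tested with edgeR 4.0.16 (R 4.3.3), a quasi-likelihood fit of 8 group means over 24 libraries, with TMM, at least 0.2 CPM in 2 libraries and a Benjamini-Hochberg FDR of at most 0.05. Genotypes at each time were compared by edgeR's exact test on 6 libraries with a fold change of at least 2, as the authors state, with standard errors from a quasi-likelihood fit of the same libraries. All 17 comparisons were adjusted over all genes tested. DESeq2 1.42.0, library size alone, no filter, other sets of libraries, a replicate block and leaving out each library were alternatives. The fits were tested on simulated data. Replicates of a group differed by 3.68 to 22.8 in chi-square per degree of freedom, more than sampling noise. Promoters came from RefSeq and coordinates from GENCODE.

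The 8 genes and the lists were chosen with earlier results of these data known. The text names the 8 genes, every called gene of 7 lists, Tob1, and for each member the 3 genes (5 for Npas4) of highest correlation. Markers, Fars2 and uncalled list genes were named after their values were seen. One further marker list was left out and is not reported here.

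Replicate numbers recur in every group, and among the groups compared only naive mice and mice at 15 min labelled Tob-KO deviated together by number (correlation 0.147 to 0.598 for the 3 pairs). With a replicate block Npas4 rose by 1.95 on the log2 scale there (FDR = 9.72e-05), and 362 genes were called against 490. A block fit of those 6 libraries alone was added after seeing the data, and called 73 genes against 5 without the block, with Npas4 at 1.94 (FDR = 0.000864).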

Additional observations from a re-analysis of the deposited data

How the results depend on the processing

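Directions of the 6 called member changes held under every alternative run. With only the libraries compared, Npas4 in WT mice at 15 min (log2 fold change 1.28), Npas4 in mice labelled Tob-KO at 15 min (1.96) and Nptx2 from 1 h to 3 h (0.38) lost their calls, which left 0, 0 and 1 members called. DESeq2 called 1 member at 1 h in mice labelled Tob-KO (Npas4, FDR = 0.0297), 1 between genotypes over all times (Npas4, FDR = 0.0372) and 2 at 15 min over both genotypes (Npas4 and Inhba, the latter at FDR = 0.0319). Leaving out 1 library at a time, Npas4 in WT mice at 15 min ranged from 1.06 to 1.45 with 0 to 1 members called, and Nptx2 from 1 h to 3 h from 0.27 to 0.45 with 1 to 2 members called. Over both genotypes at 15 min, 1 to 2 members were called (Inhba without WT replicate 2, FDR = 0.0222). The cause of these changes was not tested beyond the smaller number of samples.

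Counts of called genes moved by over 1.5 times as follows, the reported count given last. DESeq2 called 42 against 9 genes in WT mice at 15 min, 180 against 36 at 1 h, 956 against 490, 686 against 220 and 27 against 0 in mice labelled Tob-KO from 15 min to 3 h, 1298 against 848, 360 against 80 and 975 against 645 in the 3 steps, 293 against 90 between genotypes over all times and 35 against 102 at 15 min. Only the libraries compared gave 0 against 9, 5 against 490, 123 against 220, 103 against 848, 24 against 80, and 1 against 0 for the interaction at 15 min. No filter gave 20 against 9 and 1 against 0 for that interaction, and a 2-fold limit gave 4 against 36, 40 against 490 and 23 against 220. Between genotypes at each time (4, 102, 6 and 5 genes), the quasi-likelihood test called 1, 0, 0 and 1, dispersion from all libraries 4, 0, 1 and 2, and no fold limit 7, 137, 22 and 12. Leaving out 1 library gave 1 to 15, 0 to 11, 40 to 817 and 0 to 250 genes in the 4 time comparisons with calls, 317 to 1315, 13 to 225 and 315 to 511 in the steps, and 41 to 141, 4 to 53, 30 to 252, 4 to 155 and 3 to 16 between genotypes.

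With the replicate block no member gained or lost a call, and the counts moved by over 1.5 times to 112 against 220 genes at 1 h in mice labelled Tob-KO and 43 against 80 from 15 min to 1 h. Scg3, Ptprn and Penk lost their calls over both genotypes. Between genotypes at each time the block was fitted with the quasi-likelihood test and called 1, 6, 0 and 0 genes, against 1, 0, 0 and 1 by that test without it. In 13 of the 14 pairs of groups compared the numbers did not pair the samples, and in 1 pair, naive and 15 min labelled Tob-KO, every sample correlated best with its own number.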

Other observations

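The other genes most like Npas4 gave these group means, with no test. Ier2 went from 5.77 CPM in naive WT mice to 13.9 at 15 min, 6.57 at 1 h and 5.84 at 3 h, and from 4.72 to 9.32, 6.94 and 4.15 CPM in mice labelled Tob-KO. Cyr61, a secreted matrix protein, went from 4.33 to 15.1, 7.43 and 3.68 CPM and from 3.15 to 9.14, 6.46 and 3.10 CPM. The annotated transcript 1700016P03Rik went from 5.56 to 8.86, 5.18 and 4.92 CPM and from 3.29 to 6.44, 4.71 and 2.79 CPM. All 3 were lower in naive mice labelled Tob-KO than in naive WT mice by group mean, as Npas4 was.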
